A study of Saccharomyces cerevisiae with 22 samples.

Results

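Budding yeast (Saccharomyces cerevisiae) deprived of glucose was examined for the genes of autophagy that carry an ATG name. The set comprised 26 of the 5381 genes in the deposited table: 25 listed as ATG followed by a number, plus YPL250C, which the table lists as ICY2 and which is also known as ATG41. The rule reads gene names, with YPL250C added by its systematic name. Another 11 ATG genes that the table lists under other names are outside the set. Members were chosen with earlier results of these data known.

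Cells of the laboratory strains EY0690 (labelled w303) and BY4741 grew at 30 °C on synthetic complete (SC) medium that contained glucose. Starved cultures were then moved for 15 min to the same medium without glucose, whereas glucose cultures were not. All samples, starved and glucose alike, received cycloheximide at 100 µg/ml for 1 min before harvest. Ribosome footprints (fragments of mRNA protected by ribosomes) and polyA-selected RNA were each sequenced in 2 libraries per strain and condition, and RNA without polyA selection in 1 column per strain and condition. No label states that numbered libraries came from separate cultures, so p-values measure only the spread between these libraries, which may be technical.

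Autophagy delivers cytoplasm and organelles to the vacuole in a double-membraned vesicle, the autophagosome. The Atg1 kinase complex starts the process, vesicles carrying Atg9 supply membrane, a lipid kinase complex marks the membrane with a phosphoinositide, and Atg2 with Atg18 transfers lipid to it. The ubiquitin-like proteins Atg8 and Atg12 are attached to a membrane lipid and to Atg5 by enzymes resembling those of the ubiquitin system, and receptors on Atg8 or Atg11 select cargo. In yeast the pathway is best known as a response to nitrogen starvation and to inhibition of the TORC1 kinase.

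Total counts downstream of the start region ran between 698310 and 8110916 over the footprint libraries and between 1146371 and 7003745 over the polyA libraries. Both BY4741 footprint libraries numbered 2 stood apart: across all genes their log values correlated with the matching polyA library at 0.942 (starved) and 0.946 (glucose), against 0.822 to 0.875 in the other footprint libraries. Results that rest on them are given with and without them. The general stress gene HSP12 was at 126.0 to 798 CPM (counts scaled to an equal library total, the unit of all levels given here) in the 8 starved footprint and polyA libraries. In the 8 glucose ones it was at 18.6 to 101.5 CPM, so no starved library fell into the glucose range of this gene. The stress genes CTT1, HXK1 and TSL1 did not separate as fully in ranges taken over footprint and polyA libraries together. An overlap of such ranges can set a footprint value against a polyA value, and each assay was not read apart. CTT1 overlapped within BY4741 (15.4 to 265 CPM starved, 5.19 to 16.3 CPM with glucose) but not within EY0690. HXK1 and TSL1 overlapped between strains only: starved BY4741 libraries reached down to 137.5 and 67.8 CPM, and EY0690 glucose ones up to 440 and 265 CPM. Rows for the strain markers URA3, LEU2 and MET17 were not analysed here, and the HIS3 allele of BY4741 is a partial deletion, so the strain labels were not checked by their own markers.

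The upstream sequences of the 3 members whose footprints passed the test are shown first, because they can be read beside the values that follow. Each line runs 5′ to 3′ over the bases 250 to 101 before the start codon, read from build R64 of the genome on the minus strand; the 100 bases nearest the start codon are not printed. Capitals mark matches to the motifs searched. ATG41 lies upstream at chrXVI:74820-74969, ATG8 at chrII:80832-80981 and ATG3 at chrXIV:640215-640364.
ATG41: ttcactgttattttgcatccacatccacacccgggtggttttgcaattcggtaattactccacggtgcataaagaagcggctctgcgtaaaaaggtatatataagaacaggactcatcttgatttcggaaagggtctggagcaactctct
ATG8: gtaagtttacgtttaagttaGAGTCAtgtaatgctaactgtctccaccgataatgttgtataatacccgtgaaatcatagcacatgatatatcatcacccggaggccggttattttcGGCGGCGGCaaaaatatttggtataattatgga
ATG3: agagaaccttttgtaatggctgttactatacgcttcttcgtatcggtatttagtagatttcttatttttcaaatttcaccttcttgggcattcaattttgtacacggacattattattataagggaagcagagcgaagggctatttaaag

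In the window from 250 bases before to 50 bases after the start codon, on both strands, 5 motifs were searched: the stress element AGGGG, bound by Msn2 and Msn4; the core GCCGCC of the site of the repressor Ume6; GATAAG, read by zinc-finger regulators of nitrogen use; TGACTC, read by the activator Gcn4; and the core GCGGGG of the site of the glucose repressor Mig1. ATG8 held GCCGCC as 2 overlapping matches on the reverse strand, starting 133 and 130 bases before the start codon, which form the longer run of capitals above. It also held TGACTC on the reverse strand (230 bases before), AGGGG (91 and 68 bases before) and GATAAG (60 bases before). Its 3 matches nearest the start codon fall in the part not printed. The ATG41 and ATG3 windows held none of the 5 motifs, which says only that these letters are not in these windows. Over the 26 members, AGGGG occurred in 6 windows (23.1%, against 21.8% of 5378 genes), GCCGCC in 2 (7.69% against 4.69%), GATAAG in 7 (26.9% against 14.5%), TGACTC in 6 (23.1% against 8.44%) and GCGGGG in 1 (3.85% against 2.51%). A match is a description of the letters, not a bound site.

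The first comparison asked which ATG mRNAs changed 15 min after glucose was removed. In polyA RNA, 15 of the 26 members rose and none fell (edgeR quasi-likelihood test, Benjamini-Hochberg adjusted p under 0.05 over 5304 genes), where 20.4% of all genes tested rose and 19.2% fell. All 26 members passed the filter on low counts in polyA RNA. Their median log2 change was 0.59, against -0.03 over all genes tested, and 20 of 26 estimates were above 0. In 10 members (ATG2, ATG3, ATG7, ATG8, ATG9, ATG17, ATG19, ATG20, ATG29 and ATG41) the 4 starved polyA libraries all lay above the 4 glucose ones, a pattern of 12.1% of all genes; the reverse, at 8.97% of genes, was found in no member. Values are scaled shares of each library, so a rise is relative to the other genes. A gain per cell cannot be told apart from a loss of other mRNAs. The same holds for footprints. More mRNA per cell and more cells carrying the mRNA cannot be told apart either.

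**Figure D1:**
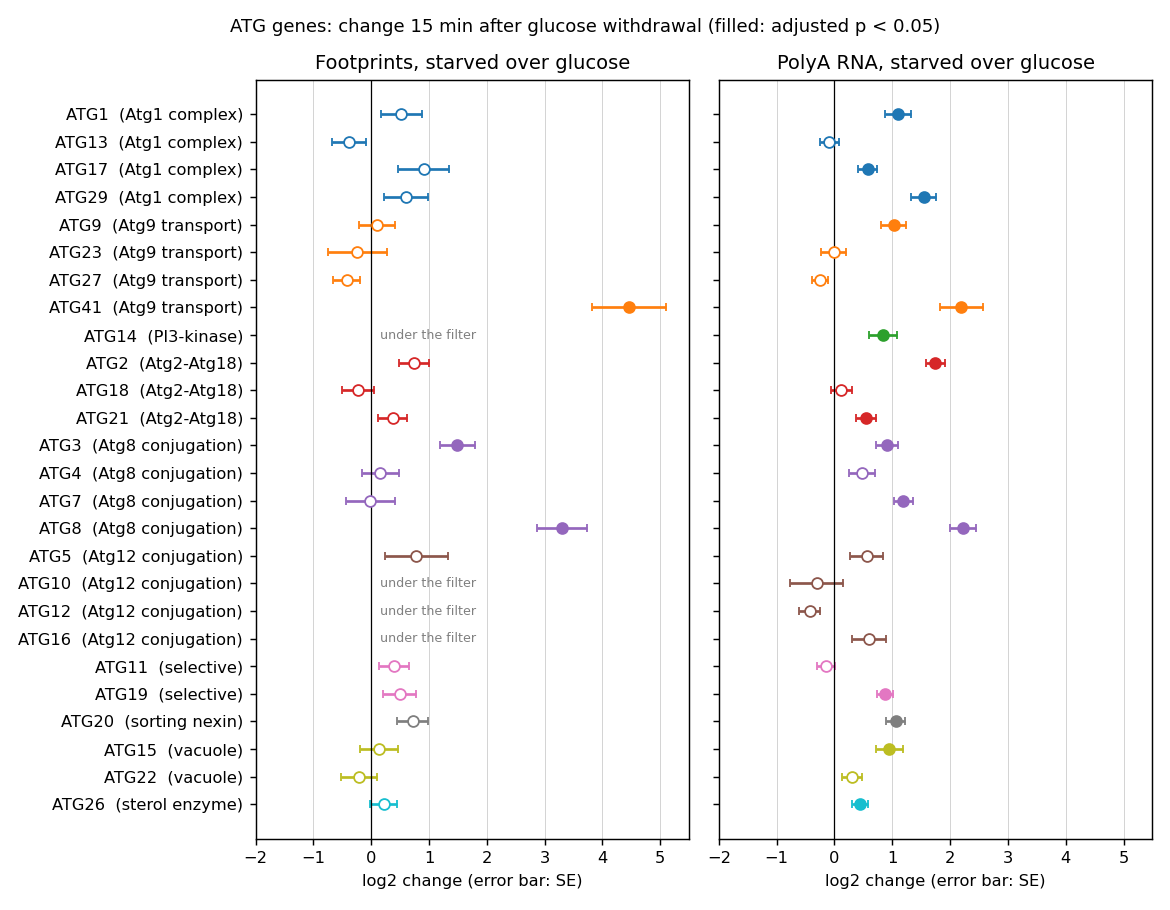
Log2 change of each of the 26 ATG genes, starved over glucose, in footprints (left) and polyA RNA (right), with the standard error as a bar and filled points where the adjusted p was under 0.05. There are 15 filled members in polyA RNA and 3 (ATG41, ATG8, ATG3) in footprints, and 4 were under the footprint filter.

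Of the Atg1 kinase complex, ATG1, ATG17 and ATG29 rose in polyA RNA and ATG13 did not pass (log2 change -0.09). ATG29, a scaffold subunit with Atg17, had 38.3 and 28.2 CPM in starved EY0690 and 42.0 and 28.0 CPM in starved BY4741, against 11.6 and 12.5 CPM in EY0690 with glucose and 11.7 and 11.5 CPM in BY4741 with glucose. The lowest starved library was more than double the highest glucose library, and the log2 change was 1.54 ± 0.22 (SE; adjusted p = 0.000203, edgeR). Its last 24 bases overlap SET6 on the other strand, and whether counting used strand is not given in the sources used here.
ATG1, the kinase that starts autophagy, had 36.0 and 25.8 CPM in starved EY0690 and 18.8 and 14.9 CPM in starved BY4741, against 15.0 and 12.5 CPM in EY0690 with glucose and 7.51 and 8.75 CPM in BY4741 with glucose. Starved BY4741 libraries overlapped the EY0690 glucose ones, but within each strain both starved libraries were higher, and the log2 change was 1.09 ± 0.23 (adjusted p = 0.0027, edgeR). ATG17, the scaffold of the complex, rose by 0.58 ± 0.17.

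Of the 4 members that act on Atg9, ATG41 and ATG9 rose in polyA RNA, and ATG23 (-0.01) and ATG27 (-0.25), both needed for Atg9 traffic in yeast, did not pass. ATG41, whose product is required for Atg9 movement in starved yeast, had 572 and 478 CPM in starved EY0690 and 507 and 181 CPM in starved BY4741, against 55.3 and 81.2 CPM in EY0690 with glucose and 156.1 and 85.1 CPM in BY4741 with glucose. The groups did not overlap, although the lower starved BY4741 library came close to the higher BY4741 glucose library; the log2 change was 2.20 ± 0.37 (adjusted p = 0.000706, edgeR). ATG9, the membrane protein of the vesicles, had 38.9 and 33.8 CPM in starved EY0690 and 37.8 and 31.8 CPM in starved BY4741, against 18.9 and 24.97 CPM in EY0690 with glucose and 12.6 and 16.8 CPM in BY4741 with glucose. All 4 starved libraries were above all 4 glucose libraries, with a log2 change of 1.02 ± 0.21 (adjusted p = 0.00272, edgeR).

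ATG2, the lipid transfer protein, had 109.7 and 91.0 CPM in starved EY0690 and 59.4 and 60.9 CPM in starved BY4741, against 33.5 and 32.8 CPM in EY0690 with glucose and 14.1 and 18.9 CPM in BY4741 with glucose. The starved libraries were higher throughout, by a log2 change of 1.74 ± 0.16 (adjusted p = 4.63e-06, edgeR), which had the smallest p of all members. Its partner ATG18 did not pass (0.12), whereas ATG21, a protein of the same phosphoinositide-binding family, rose by 0.54 ± 0.18. ATG14, the subunit specific to the autophagy form of the lipid kinase complex, rose by 0.84 ± 0.24.

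Of the 4 genes counted for Atg8 conjugation (ATG3, ATG4, ATG7, ATG8), 3 rose in polyA RNA. Of the 4 genes of Atg12 conjugation (ATG5, ATG10, ATG12, ATG16) none passed, where 20.4% of all genes rose. ATG7 serves both systems but is counted with Atg8 alone. ATG8 had 128.6 and 100.7 CPM in starved EY0690 and 107.5 and 55.0 CPM in starved BY4741, against 27.2 and 24.2 CPM in EY0690 with glucose and 17.8 and 15.6 CPM in BY4741 with glucose. No libraries overlapped between conditions, and the log2 change was 2.22 ± 0.22 (adjusted p = 6.2e-06, edgeR). ATG7, the activating enzyme shared by both conjugation systems, had 113.8 and 95.1 CPM in starved EY0690 and 73.2 and 76.5 CPM in starved BY4741, against 34.0 and 51.5 CPM in EY0690 with glucose and 33.3 and 36.9 CPM in BY4741 with glucose. It also separated completely, with a log2 change of 1.19 ± 0.16 (adjusted p = 0.000137, edgeR).
ATG3, the conjugating enzyme for Atg8, rose by 0.91 ± 0.18, and ATG4, the protease that processes Atg8, had an estimate of 0.48 ± 0.22 (adjusted p = 0.104). In the Atg12 system the estimates were 0.56 ± 0.29 for ATG5, 0.60 ± 0.30 for ATG16, -0.30 ± 0.46 for the conjugating enzyme ATG10 and -0.43 ± 0.18 for ATG12 itself (adjusted p between 0.0733 and 0.621, edgeR). The difference between the 2 systems was not tested.

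Among the remaining genes, the receptor ATG19 of the cytoplasm-to-vacuole pathway (0.87 ± 0.14), the sorting nexin ATG20 (1.06 ± 0.16), the vacuolar lipase ATG15 (0.95 ± 0.24) and the sterol glucosyltransferase ATG26 (0.44 ± 0.14) rose in polyA RNA. The scaffold for selective autophagy ATG11 (-0.14) and the vacuolar amino acid exporter ATG22 (0.30) did not pass. ATG4 passed without the first starved BY4741 polyA library (0.63, adjusted p = 0.0417) and ATG5 without the second (0.76, adjusted p = 0.0419). Calls for ATG14, ATG17, ATG21 and ATG26 were each lost without at least 1 polyA library: ATG14 without the first BY4741 glucose library (0.69, adjusted p = 0.073), ATG17 without either BY4741 glucose library (0.53 and 0.55, adjusted p = 0.0624 and 0.0576), ATG26 without the second BY4741 glucose, first EY0690 glucose or second starved EY0690 library (0.41 to 0.44, adjusted p between 0.0548 and 0.072), and ATG21 without any library but the second starved BY4741 and second EY0690 glucose ones (0.43 to 0.56, adjusted p between 0.0518 and 0.0844).

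The second comparison asked whether ribosome footprints on these mRNAs changed as well. Footprints rose on ATG41, ATG8 and ATG3, that is on 3 of the 22 members that passed the low-count filter, and fell on none (edgeR, 5018 genes); 2.93% of all genes rose and 0.259% fell. ATG10, ATG12, ATG14 and ATG16 were under the filter. Among the members tested the median log2 change was 0.39, against -0.03 over all genes.

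ATG41 had 1941 and 1110 footprint CPM in starved EY0690 and 1993 and 285 CPM in starved BY4741, against 44.4 and 29.9 CPM in EY0690 with glucose and 118.5 and 63.3 CPM in BY4741 with glucose. Starved libraries were higher throughout, and the second BY4741 library was the lowest of them. The means were 1332 ± 807 CPM in starved cells and 64.01 ± 38.8 CPM with glucose (SD, n = 4 each), and the log2 change of 4.45 ± 0.64 (21.9-fold; adjusted p = 0.00164, edgeR) ranked 17 among 5018 genes, from the highest down. Per length, ATG41 footprints stood above 99.3% of all genes in starved cells and above 82.8% with glucose.

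ATG8 had 112.3 and 81.7 footprint CPM in starved EY0690 and 164.4 and 42.8 CPM in starved BY4741, against 8.26 and 3.90 CPM in EY0690 with glucose and 13.6 and 12.8 CPM in BY4741 with glucose. The lowest starved library was again the second BY4741 one, and it was still above every glucose library. The log2 change was 3.29 ± 0.43 (9.81-fold; adjusted p = 0.000876, edgeR).
ATG3 had 77.3 and 68.4 footprint CPM in starved EY0690 and 38.9 and 25.5 CPM in starved BY4741, against 18.6 and 14.3 CPM in EY0690 with glucose and 14.1 and 17.8 CPM in BY4741 with glucose. The groups did not overlap and the log2 change was 1.49 ± 0.30 (adjusted p = 0.0172, edgeR), but the call was lost without the first BY4741 glucose library or without any one of the 4 EY0690 footprint libraries (1.32 to 1.53, adjusted p between 0.0511 and 0.0944) and with scaling by library size alone (1.34, adjusted p = 0.106).

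**Figure D2:**
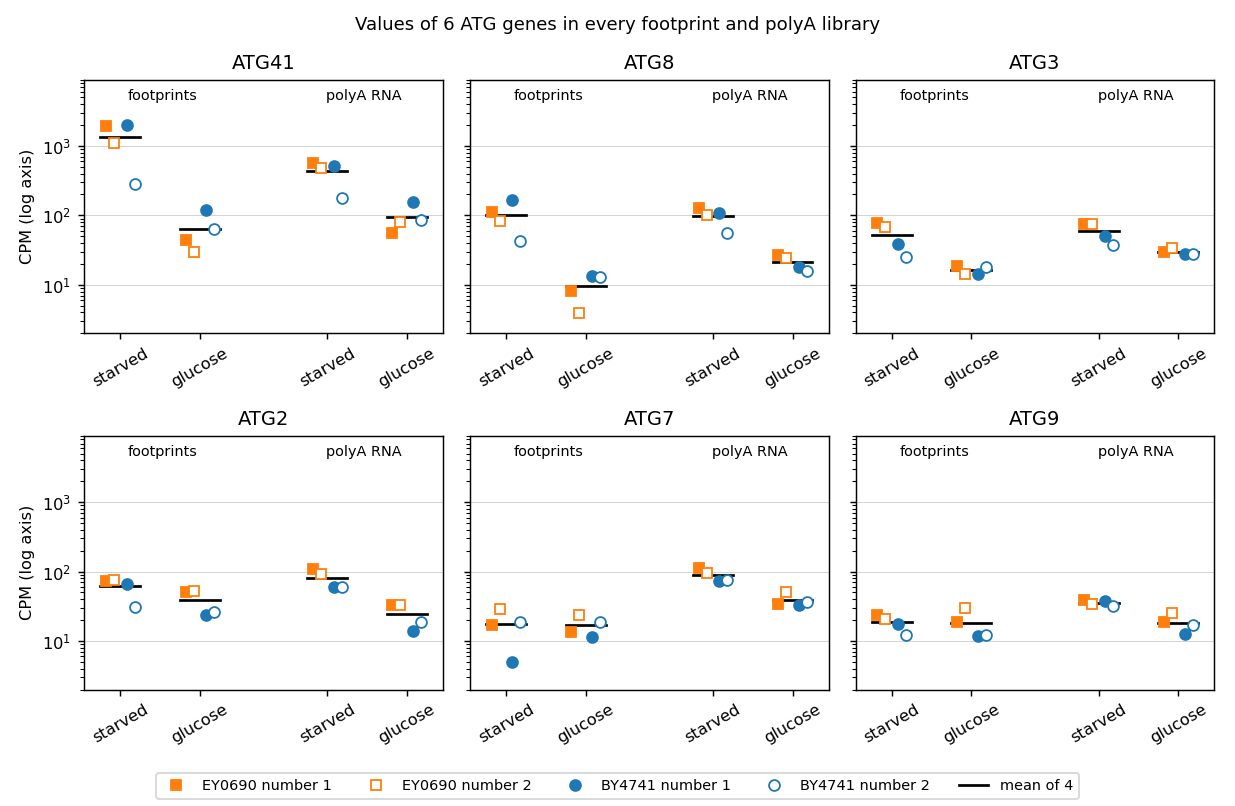
CPM on a log axis in each footprint and polyA library for 6 ATG genes, starved left of glucose, with EY0690 as squares, BY4741 as circles, open symbols for libraries numbered 2 and a line at the mean of 4. ATG41, ATG8 and ATG3 separate the conditions in both assays, whereas ATG2, ATG7 and ATG9 do so in polyA RNA alone.

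ATG29 is a further member in which all starved footprint libraries lay above all glucose ones (9.48, 11.4, 9.89 and 8.40 CPM against 5.16, 5.20, 6.06 and 7.87 CPM, in the order EY0690 numbers 1 and 2, BY4741 numbers 1 and 2). That pattern was found in 4 of 22 members and in 3.85% of all genes; the log2 change of ATG29 was 0.61 ± 0.38 (adjusted p = 0.527, edgeR). The other members lay between -0.43 (ATG27) and 0.91 (ATG17), with adjusted p of 0.179 or more.
Several members that rose in polyA RNA had footprint estimates near 0. ATG7 had 16.8 and 28.5 footprint CPM in starved EY0690 and 4.94 and 18.9 CPM in starved BY4741, against 13.4 and 23.4 CPM in EY0690 with glucose and 11.5 and 18.8 CPM in BY4741 with glucose, a log2 change of -0.01 ± 0.43. ATG9 had 23.3 and 20.9 CPM in starved EY0690 and 17.3 and 12.4 CPM in starved BY4741, against 18.6 and 29.9 CPM in EY0690 with glucose and 11.8 and 12.1 CPM in BY4741 with glucose, a log2 change of 0.10 ± 0.31. Conditions overlapped in both genes.
ATG1 had 29.2 and 23.7 footprint CPM in starved EY0690 and 25.3 and 12.4 CPM in starved BY4741, against 18.6 and 10.4 CPM in EY0690 with glucose and 17.6 and 13.4 CPM in BY4741 with glucose (0.52 ± 0.36, adjusted p = 0.576, edgeR). ATG2 had 73.6 and 76.0 CPM in starved EY0690 and 66.1 and 31.0 CPM in starved BY4741, against 50.6 and 53.3 CPM in EY0690 with glucose and 23.4 and 26.2 CPM in BY4741 with glucose (0.74 ± 0.26, adjusted p = 0.179). In each strain the starved ATG2 libraries were above the glucose ones. Without both BY4741 footprint libraries numbered 2, 5 members passed: ATG2 (0.87, adjusted p = 0.0457), ATG20 (0.93, adjusted p = 0.0385) and the 3 named before; ATG2 passed also without the starved one of them alone (0.91, adjusted p = 0.0268).

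The third comparison set footprints against polyA RNA in 1 model. Its log2 change states how far ribosome occupancy per mRNA moved relative to the other genes, because the libraries were scaled to each other. A change in occupancy shared by all mRNAs would not show. No member of 22 passed (edgeR; 0 also with DESeq2), 6 were under an unadjusted p of 0.05, and 1.34% of all genes passed in either direction. Estimates were above 0 in 6 members and below 0 in 16, with a median of -0.24, against 0.05 over all genes.

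ATG41 had the largest estimate, 2.29 ± 0.78 (adjusted p = 0.153, edgeR), the highest among 5018 genes and rank 13 by size in either direction. Its ratio of footprint to polyA CPM was 3.39 and 2.32 in starved EY0690 and 3.93 and 1.58 in starved BY4741, against 0.802 and 0.368 in EY0690 with glucose and 0.760 and 0.743 in BY4741 with glucose. All starved ratios exceeded all glucose ratios. ATG8 had an estimate of 1.11 ± 0.52 (adjusted p = 0.301) with ratios of 0.873 and 0.811 in starved EY0690 and 1.53 and 0.777 in starved BY4741, against 0.304 and 0.161 in EY0690 with glucose and 0.763 and 0.820 in BY4741 with glucose, so its second BY4741 pair ran the other way. Without both BY4741 footprint libraries numbered 2, ATG41 (2.72, adjusted p = 0.0182) and ATG8 (1.59, adjusted p = 0.0326) passed. Without the starved one alone they also passed (2.82 and 1.61, adjusted p = 0.0143 and 0.0234), and ATG41 passed in EY0690 alone (2.498, adjusted p = 0.0152).

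At the other end, ATG7 (-1.15 ± 0.43, adjusted p = 0.193), ATG2 (-0.93 ± 0.32, adjusted p = 0.15), ATG29 (-0.93 ± 0.36) and ATG9 (-0.85 ± 0.34) had the lowest estimates (edgeR). The ATG7 ratio was 0.147 and 0.300 in starved EY0690 and 0.0676 and 0.247 in starved BY4741, against 0.395 and 0.454 in EY0690 with glucose and 0.346 and 0.510 in BY4741 with glucose. Starved ratios were lower in all 4 pairs and the groups did not overlap; with the replicate number as a block ATG7 passed (-1.23, adjusted p = 0.0406). The ATG2 ratio was 0.671 and 0.835 in starved EY0690 and 1.11 and 0.509 in starved BY4741, against 1.51 and 1.62 in EY0690 with glucose and 1.66 and 1.39 in BY4741 with glucose. These groups did not overlap either, and ATG2 passed without the first starved BY4741 footprint library (-1.29, adjusted p = 0.0104). Starved and glucose ratios also separated in ATG3 (starved above) and in ATG9, ATG15 and ATG29 (starved below). The share of all genes with such a separation of ratios was not computed.

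**Figure D3:**
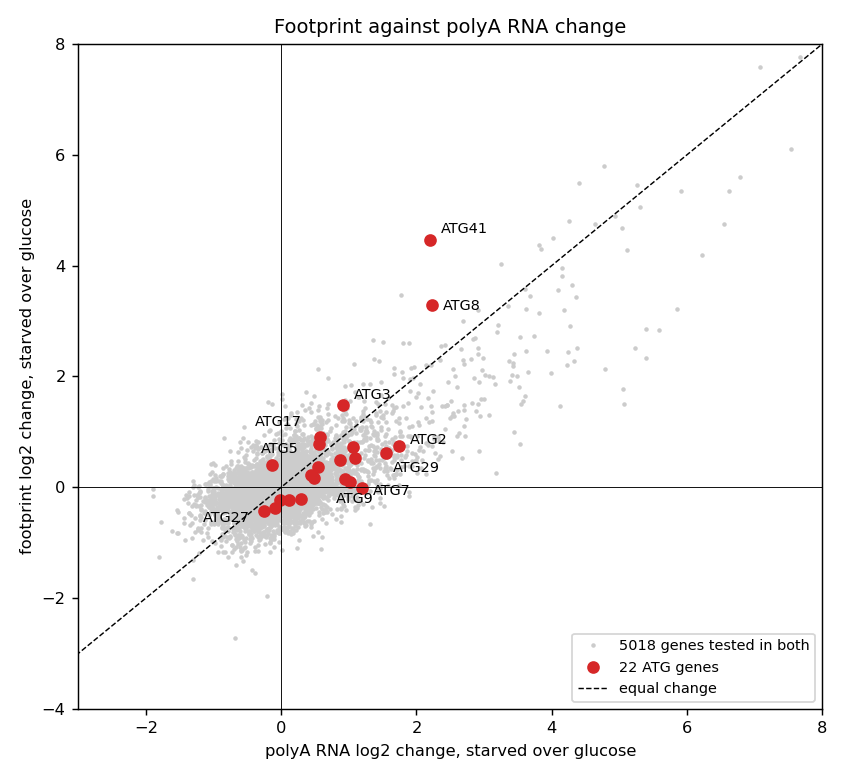
Log2 change in footprints (vertical) against polyA RNA (horizontal), starved over glucose, for 5018 genes in grey and 22 ATG genes in red, with a dashed line where both are equal. ATG41 and ATG8 lie above the line at 4.45 and 3.29 in footprints, and ATG2, ATG7, ATG9 and ATG29 lie below it.

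Per length, most members were low. In footprints the median member stood at 12.8 CPM per kilobase in starved cells and 12.3 with glucose, against 37.3 and 37.0 for the median gene of the table, which placed it above 17.2% and 17.6% of genes. In polyA RNA it stood at 33.9 in starved cells and 22.1 with glucose (medians of all genes 61.8 and 59.7), above 28.5% and 18.7% of genes. Lengths are those listed for each gene, and the extent of the start region that is counted apart is not given, so levels of short genes such as ATG41 and ATG8 are low estimates.
Among the members, footprints per polyA RNA placed ATG41 above 98.6% of genes in starved cells and 52.3% with glucose, and ATG5 above 0.558% and 0.0797%. ATG5, the acceptor of Atg12, had 265 and 95.9 polyA CPM in starved EY0690 and 199.5 and 116.2 CPM in starved BY4741, against 124.2 and 73.4 CPM in EY0690 with glucose and 127.9 and 132.2 CPM in BY4741 with glucose. In footprints it had 14.6, 13.3 and 13.6 CPM in both starved EY0690 libraries and the first starved BY4741 library and 7.22, 3.90 and 10.4 CPM in the glucose libraries of the same names, but 61.3 and 42.4 CPM in the second starved and glucose BY4741 libraries. The 2 high values are thus in the libraries that resemble polyA RNA most. ATG12 showed the same: 20.6 to 48.2 polyA CPM over 8 libraries, but in footprints 16.4 CPM or more in the second BY4741 libraries of both conditions and 1.24 to 4.13 CPM in the other 6. The part of library preparation in these values was not tested.

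The table counts reads at the start of each gene apart from those downstream. Of all ATG41 footprints, the start region held 17.6% and 15.7% in starved EY0690 and 14.2% and 14.9% in starved BY4741, against 34.8% and 39.5% in EY0690 with glucose and 43.7% and 16.8% in BY4741 with glucose. Each starved library was lower than the glucose library of its strain and number, by little in the second BY4741 pair, but the groups overlapped, since the first starved EY0690 library lay above the second BY4741 glucose one. The EY0690 glucose shares rest on 23 and 15 start-region counts. Summed over the other 25 members the share ran the other way: 13.6% and 13.03% in starved EY0690 and 14.7% and 11.5% in starved BY4741, against 5.58% and 5.35% in EY0690 with glucose and 13.8% and 5.08% in BY4741 with glucose. Over all genes the shares were 10.6% to 14.4% in starved libraries and 8.16% to 14.5% with glucose. Pooled over libraries, which weights the deeper ones, 18 of the 22 members that passed the filter had a higher start-region share in starved cells and 4 a lower one, where 62.6% of all genes had a higher and 36.8% a lower share, with examples of 14.8% against 4.04% for ATG2 and 22.4% against 4.71% for ATG4. With both regions summed, the same number of members passed in polyA RNA (15) and in footprints (3), and none in occupancy.

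RNA without polyA selection gave a second reading of the mRNA change, with 1 library of total RNA per condition in BY4741 and 1 column pooling total and ribosomal-RNA-depleted RNA per condition in EY0690. These ratios have no replicate check, and their 95% intervals (exact conditional binomial) cover counting error only. ATG41 was 8.84-fold higher in starved EY0690 (7.74 to 10.1) and 3.20-fold higher in starved BY4741 (2.79 to 3.66). ATG8 was 4.71-fold higher in EY0690 (3.32 to 6.76) and 7.49-fold higher in BY4741 (3.98 to 15.3). After scaling of the library totals, the interval lay above 1 in 17 of 26 members in EY0690 and in 9 in BY4741. All 9 were among the 17, and the interval lay below 1 in no member. Among genes with 20 counts or more (26 members in EY0690 and 24 in BY4741), the interval lay above 1 in 30.3% and below 1 in 29.5% in EY0690, and above 1 in 25.6% and below 1 in 24% in BY4741.
ATG5 was 4.26-fold higher in EY0690 (3.45 to 5.29) and 2.98-fold higher in BY4741 (2.28 to 3.91), although its polyA change did not pass over both strains; it passed in EY0690 alone (0.86, adjusted p = 0.0492, edgeR). ATG1 and ATG15 differed between the columns: ATG1 was at 2.97-fold in EY0690 (2.23 to 3.98) and 0.958-fold in BY4741 (0.684 to 1.33), and ATG15 at 1.63-fold (1.30 to 2.03) and 0.747-fold (0.522 to 1.06). The 2 strains' columns were prepared differently, so strain and preparation cannot be told apart here. Within BY4741, polyA RNA alone gave log2 changes of 1.08 for ATG1, 1.02 for ATG15 and 1.10 for ATG14. These did not pass in that strain alone (adjusted p = 0.0704, 0.134 and 0.0505, edgeR). Total RNA showed no such rise for them, with ATG14 at 0.998-fold (0.529 to 1.84). Of the members called in polyA RNA, ATG1, ATG3, ATG14, ATG15, ATG17, ATG21 and ATG26 had a BY4741 interval that included 1. The other called members had one above 1.

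**Figure D4:**
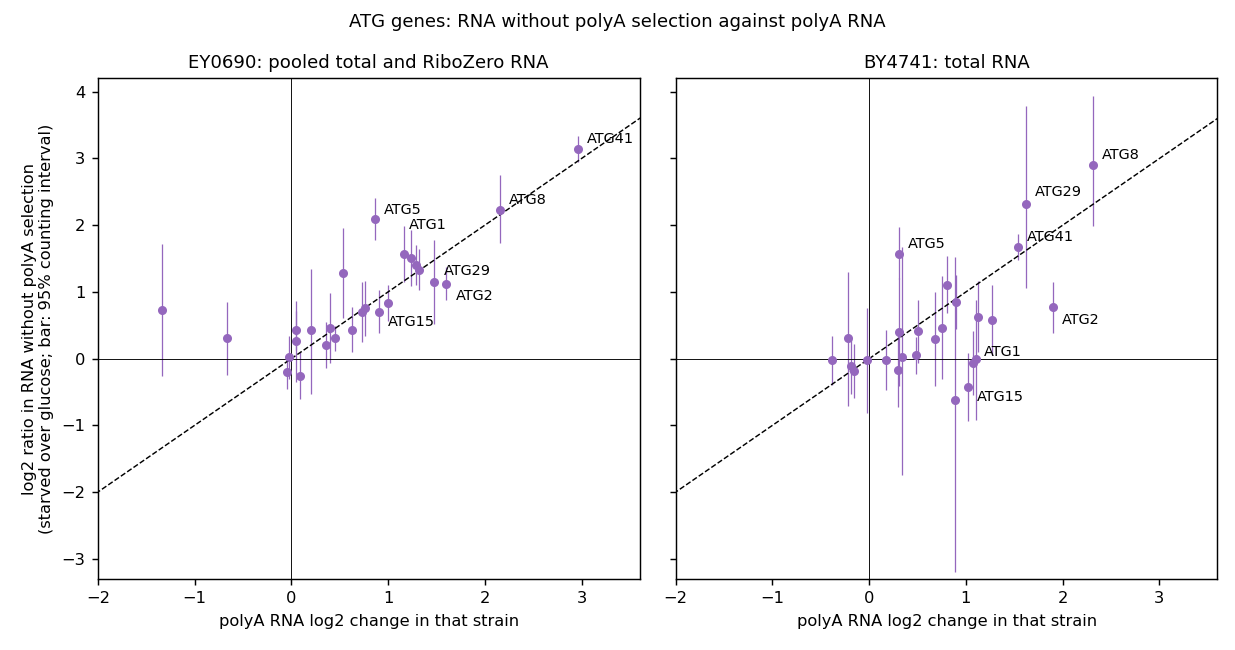
Log2 ratio of starved over glucose in RNA without polyA selection (vertical, bars are 95% counting intervals) against the polyA RNA log2 change in the same strain (horizontal), for 26 ATG genes in EY0690 (left) and BY4741 (right), with a dashed line where both are equal. ATG8 and ATG41 are high in both panels, ATG5 lies above the line in both, and ATG1 and ATG15 lie above 0 in EY0690 but near or under 0 in BY4741.

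The strains were compared over both conditions together. In polyA RNA, 8 of 26 members were higher in EY0690 than in BY4741 and 2 were lower (edgeR), where 20.2% of all genes were higher and 17% lower. In footprints 3 of 22 were higher and 1 lower, against 11.2% and 10.7% of all genes. EY0690 libraries held 1146371 to 1974938 polyA counts and BY4741 libraries 5252923 to 7003745; the part of this difference in depth was not tested. These tests treat starved and glucose libraries of the same number as independent, although they deviated together. With their correlation estimated (limma voom), 9 of the 10 polyA calls held, all but ATG3 (adjusted p = 0.0602), and 2 of the 4 footprint calls, ATG15 and ATG18, held.
ATG15, a lipase of the vacuole, had 55.4 and 56.4 polyA CPM in starved EY0690 and 30.1 and 29.7 CPM in EY0690 with glucose, against 31.6 and 15.8 CPM in starved BY4741 and 13.7 and 10.1 CPM in BY4741 with glucose. Its footprints were 53.2 and 42.7 CPM in starved EY0690 and 55.7 and 49.4 CPM in EY0690 with glucose, against 27.2 and 10.2 CPM in starved BY4741 and 16.4 and 10.6 CPM in BY4741 with glucose. EY0690 was higher in each condition, by 1.29 ± 0.24 in polyA RNA (adjusted p = 0.00127) and 1.71 ± 0.33 in footprints (adjusted p = 0.00508, edgeR).

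ATG18, the phosphoinositide-binding partner of Atg2, had 53.1 and 41.1 polyA CPM in starved EY0690 and 46.6 and 42.1 CPM in EY0690 with glucose, against 27.0 and 21.4 CPM in starved BY4741 and 21.8 and 21.9 CPM in BY4741 with glucose. Its footprints were 43.0 and 43.7 CPM in starved EY0690 and 67.1 and 49.4 CPM in EY0690 with glucose, against 28.4 and 14.2 CPM in starved BY4741 and 24.8 and 17.6 CPM in BY4741 with glucose. No EY0690 library fell into the BY4741 range in either assay, and the differences were 1.00 ± 0.18 (adjusted p = 0.00109) and 1.28 ± 0.28 (adjusted p = 0.00923, edgeR).
ATG2, whose values are given with the response above, was higher in EY0690 by 0.86 ± 0.16 in polyA RNA (adjusted p = 0.00156) and by 0.85 ± 0.26 in footprints (adjusted p = 0.0359, edgeR). The footprint call was lost without any of 7 of the 8 footprint libraries and without both BY4741 libraries numbered 2 (0.62, adjusted p = 0.13), and it was lost with the estimated correlation (0.92, adjusted p = 0.129, limma). ATG4 (0.85), ATG1 (0.83), ATG3 (0.51), ATG19 (0.49) and ATG26 (0.40) were also higher in EY0690 in polyA RNA, and ATG27 (-0.72) and ATG22 (-0.65) were lower.
Calls for ATG1 and ATG19 were lost without the first starved EY0690 polyA library (0.70 and 0.43, adjusted p = 0.0564 and 0.0525), and those for ATG3 and ATG26 were each lost without any of 7 of the 8 libraries (0.35 to 0.56, adjusted p between 0.0519 and 0.14). The ATG5 footprints were lower in EY0690 by a log2 difference of -1.78 ± 0.57 (adjusted p = 0.0417), and the difference was -0.36 (adjusted p = 0.571, edgeR) without both BY4741 libraries numbered 2. That call was also lost without any one of 6 of the 8 footprint libraries (-1.91 to -1.24, adjusted p between 0.0931 and 0.149, edgeR), and with limma voom, both without (-1.55, adjusted p = 0.208) and with the estimated correlation (-1.47, adjusted p = 0.304).

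**Figure D5:**
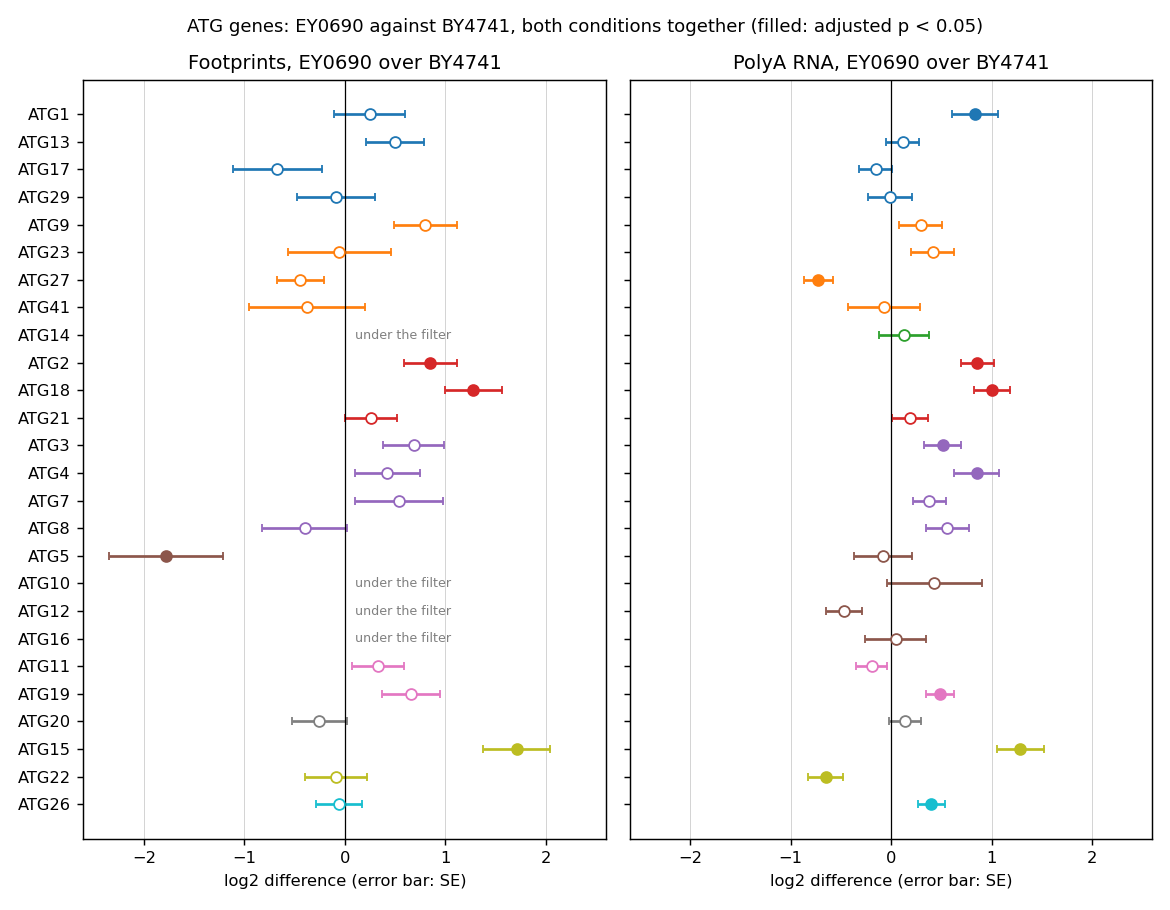
Log2 difference of each ATG gene, EY0690 over BY4741 with both conditions together, in footprints (left) and polyA RNA (right), with the standard error as a bar and filled points where the adjusted p was under 0.05. ATG15, ATG18 and ATG2 are filled to the right in both panels, and ATG5 is filled to the left in footprints alone.

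Whether the response to glucose differed between strains was tested by the strain-by-glucose term. No member passed in polyA RNA (edgeR; 0 with DESeq2; 1 at an unadjusted p under 0.05, ATG41), where 0.17% of all genes passed. In footprints no member passed either (0 in edgeR, 0 with DESeq2 and 0 at an unadjusted p under 0.05), nor did any gene (0%). On simulated counts the footprint test recovered 0 of 100 genes with a log2 term of 1 and 5 of 100 with a term of 2. It therefore cannot show whether the strains responded alike in footprints. The polyA test recovered 15 and 85 of 100. ATG41 had the highest term among members in both assays, 1.45 ± 0.58 in polyA RNA (adjusted p = 0.782) and 1.70 ± 1.06 in footprints (adjusted p = 0.997, edgeR). The conjugating enzyme ATG10 had a term of larger size below 0 in polyA RNA (-1.67). In polyA RNA ATG41 passed without the first starved BY4741 library (2.33, adjusted p = 0.0216).

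Other genes of the pathway were read in the same fits, where 20.4% of all genes rose and 19.2% fell in polyA RNA. In footprints 2.93% of all genes rose and 0.259% fell. Of 11 further ATG genes that the annotation names but the table lists otherwise, 6 rose in polyA RNA and none fell, led by ATG39 (2.92 ± 0.28), a receptor for the nuclear envelope, ATG34 (1.79 ± 0.18), a receptor for vacuolar enzymes, and ATG42 (1.57 ± 0.16), a vacuolar carboxypeptidase. None of the 8 tested passed in footprints. All 10 genes of vacuolar hydrolases and cargo rose in polyA RNA, with a median of 0.87; the largest changes were in the protease PRB1 (2.24 ± 0.19), the aminopeptidase APE1 (2.17 ± 0.25) and the mannosidase AMS1 (1.79 ± 0.19). PRB1 (1.73 ± 0.40, adjusted p = 0.0376) and AMS1 (1.47 ± 0.36, adjusted p = 0.0464, edgeR) rose also in footprints.
Of 11 machinery genes under other names 3 rose and none fell: the ubiquitin-binding receptor CUE5 (0.82 ± 0.27) and the sorting nexins SNX41 (0.71 ± 0.18) and SNX4 (0.64 ± 0.17). Of 9 genes of vacuolar fusion the SNARE VTI1 rose (0.96 ± 0.18) and CCZ1, of the exchange factor for the Rab Ypt7, fell by 0.60. Among 15 genes of nutrient signalling 5 rose and 1 fell. The protein kinase A subunit TPK2 (1.93 ± 0.18) and the TORC1 subunit LST8 (1.24 ± 0.32) were among those that rose. The gene that fell was TPK3, another protein kinase A subunit (-0.84 ± 0.21). Of 10 transcription regulators GIS1 rose (2.32 ± 0.25) and GCN4 fell by 0.40. No gene of these 4 lists passed in footprints. In occupancy TPK2 (-1.49 ± 0.27) and GIS1 (-1.76 ± 0.41) were among the genes that fell.
Between strains, 20.2% of all genes were higher in EY0690 and 17% lower in polyA RNA, and 11.2% and 10.7% in footprints. Genes of these lists were mostly higher in EY0690 where they passed. In polyA RNA that held for 7 of 15 signalling genes, 5 of 10 regulators, 4 of 10 hydrolases and cargo genes, 4 of 11 further ATG genes and 3 of 11 machinery genes, with none lower, and of 9 fusion genes 1 was higher and 1 lower. The largest differences were in GAT1, an activator of nitrogen-use genes (3.19 ± 0.16), PRB1 (1.97 ± 0.19) and ATG39 (1.86 ± 0.27). In footprints 8, 3 and 4 of the same signalling, regulator and hydrolase lists, 3 of 8 further ATG genes and 2 of 11 machinery genes were higher and none lower, while 1 fusion gene was higher and 3 were lower. GAT1 (3.59 ± 0.34), PRB1 (1.56 ± 0.40) and RIM15, a kinase under nutrient control (1.55 ± 0.35), led. No gene of these lists passed in the strain-by-glucose terms.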

How the data were processed

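Ribosome footprints and RNA were measured in the libraries described above. The deposited table holds whole-number read counts per gene, split by the authors into a start region and the region downstream, with no normalization per the file headers; no source used here gives the bounds of these regions. Per the submitters' processing notes, Bowtie 0.12.8 and build R64 were used. The values are downstream counts; blanks (60 in footprint library 1 of starved BY4741) were taken as 0, and 2 per-sample start-region columns of pooled EY0690 RNA were not used. The table's length column, in bases, is the authors' own.

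Genes that reached 10 counts in 4 or more libraries of a kind were tested with edgeR 4.0.16 (R 4.3.3, TMM scaling, glmQLFit and glmQLFTest) with strain as a covariate, and p-values were adjusted over all genes at a threshold of 0.05; occupancy came from the assay-by-condition term over 16 libraries. The script was tested on simulated data. With a log2 change of 1 it recovered 92% of changed genes in the polyA response, 38% in the footprint response and 18% in occupancy. With a log2 change of 2 it recovered 100%, 96% and 94%. CPM used TMM-scaled totals. Members and pathway lists were chosen with earlier results of these data known. Values in every library are given for members past the threshold in footprints, for the 6 largest polyA changes, for the 3 largest strain differences and for ATG1, ATG8, ATG9 and ATG41; of the other pathway genes the 3 largest changes of each comparison, and the largest of each list in polyA RNA, are named, except an item that is not reported here. ATG5, ATG12 and the start-region values were added after they were seen. Starved and glucose libraries of the same number deviated together (correlations of 0.297 and 0.149 in polyA RNA and 0.204 and 0.687 in footprints, EY0690 and BY4741), so a replicate block was tried (edgeR, DESeq2 1.42.0 and limma alternatives are given below). Of the 5381 identifiers, 5380 matched the R64 annotation, from which upstream windows were read; no member but ATG13 (4 of 2190) shares a 28-base word with another place in the genome.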

Additional observations from a re-analysis of the deposited data

How the results depend on the processing

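Counts of members that passed moved by over 1.5 times in these settings. With BY4741 alone, 6 passed in polyA RNA (against 15) and 0 in footprints (against 3; ATG8 2.97 and ATG41 3.66, adjusted p = 0.356 and 0.533), where no gene of the table passed. Without both BY4741 footprint libraries numbered 2, 5 passed in footprints and 2 in occupancy. In occupancy, where none passed, 1 did in EY0690 alone and 1, ATG7, with the replicate block; in the edgeR fits the replicate block changed no other call of a member. The strain difference in footprints had 2 with library size alone (against 4). With 1 library left out at a time, 12 to 16 members passed in polyA RNA, 2 to 4 in footprints, 0 to 2 in occupancy, 6 to 11 and 2 to 6 in the strain differences of polyA RNA and footprints, and 0 to 1 and 0 to 0 in the strain-by-glucose terms. For strain differences the number is nested in strain, so the replicate block entered as an estimated correlation within numbered sets (limma voom, chosen after seeing the data; 0.148 in polyA RNA and 0.426 in footprints): 9 passed in polyA RNA (against 10) and 2 in footprints (against 4), where limma voom without it gave 10 and 3.

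Scaling by library size alone moved the all-gene median to -0.13 in polyA RNA and -0.17 in footprints, and left 12 and 2 members. Over all genes, 147 rose in footprints, 240 with DESeq2, 324 with the block, 377 in EY0690 alone and 407 without both BY4741 libraries numbered 2. Of 416 values of members in polyA RNA under these alternatives 385 kept their side of the threshold. So did 362 of 374 in footprints and 543 of 550 in occupancy. Most of the footprint and all of the occupancy values are of members not called, so these totals say little about calls. ATG3 lost its footprint call in 7 of 17 alternatives, and ATG41 and ATG8 in 1 of 17 each. For members called between strains, 133 of 150 values in polyA RNA and 43 of 64 in footprints kept the call. No called value changed sign. The causes were not tested. ATG10, ATG12, ATG14 and ATG16 were under the footprint filter; with no filter all 26 members were tested and 3 passed.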
